A study of Mus musculus with 12 samples.

Results

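Macrophages take up fatty acids and lipoproteins, store or burn them, and pass surplus cholesterol back to lipoproteins outside the cell. The transcripts of 10 mouse genes of this traffic were followed here, chosen by symbol among the 56832 gene rows of the count table, and all 10 had a row and passed the filter on low counts. They were the uptake genes Cd36 and Lpl, the fatty acid binding protein genes Fabp4 and Fabp5, the efflux genes Apoe, Abca1 and Abcg1, the phospholipid remodelling gene Lpcat3, and the nuclear receptor genes Nr1h3 and Pparg. Of the 10 genes, 5 were lower in macrophages from leukemic mice (Cd36, Lpl, Fabp4, Apoe and Lpcat3), 1 was higher (Fabp5), and Abca1, Abcg1, Nr1h3 and Pparg did not pass the test. Of all 15758 genes tested with edgeR's quasi-likelihood test, 17.9% passed at an adjusted p under 0.05, 9.2% lower and 8.71% higher.

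RNA sequencing was done on bone marrow cells sorted as CD45+, F4/80+, Ly6g- and Ly6c-, the gate that the study used for macrophages. The non-leukemic group held 3 male and 3 female libraries from healthy mice, and the leukemic group held 3 male and 3 female libraries made at day 11, late in disease, from mice that had received cells of the bcCML leukemia model by transplant. The labels give no strain, age or genotype for either group, no marker that separates transplanted from host cells within the gate, and no word on whether replicates were separate animals or pools, so p-values cover only library-to-library spread, which may be technical. By its title, the study asked about lactate and its receptor GPR81 in the polarization of marrow macrophages in leukemia.

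In this traffic, CD36 is a surface receptor for long-chain fatty acids and oxidized lipoproteins, and lipoprotein lipase, the product of Lpl, releases fatty acids from triglyceride-rich lipoproteins. Fatty acid binding proteins carry the fatty acids inside the cell. Surplus cholesterol leaves through the transporters ABCA1 and ABCG1, which load apolipoprotein A-I and high-density lipoprotein, and macrophages also secrete apolipoprotein E as a lipid carrier. The oxysterol receptor LXR alpha, encoded by Nr1h3, and the fatty acid receptor PPAR gamma, encoded by Pparg, are transcription factors known to act on several of these genes in macrophages.

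Library totals ran from 16911827 to 26611831 counts (non-leukemic) and from 22437689 to 30014855 counts (leukemic). At these depths a count of 0 allows up to 3 counts, or 0.1 to 0.177 when scaled by the library total (CPM), and the lowest count of any of the 10 genes was 82, for Fabp4 in female leukemic replicate 2 (exact Poisson 95% interval 65.2 to 102, counting error only). A pair of libraries stood apart. Female leukemic replicate 1 had 17891 genes detected against 19521 to 21247 in the others, and Adgre1, which encodes F4/80, reached 258 CPM in male non-leukemic replicate 3 and was at 75.9 to 112 CPM in the rest of its condition and at 28.4 to 60.6 CPM in leukemic libraries. Male non-leukemic replicate 3 was also the highest non-leukemic library for 8 of the 10 genes, all but Cd36 and Lpcat3. Outside that pair, female leukemic replicate 2 had the 28.4 CPM of Adgre1, with the next leukemic library at 51.8 CPM. It was also the lowest leukemic library for Cd36, Lpl, Fabp4, Fabp5, Abca1, Nr1h3 and Pparg. Where leaving out either library of the pair changed a call named below or moved a called value by over 1.5 times, the value without it is given.

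The promoters of Cd36, Apoe and Lpcat3, which were lower in leukemic libraries, and of Abca1, which did not pass, are shown. They let the DNA in front of the genes be read beside their counts. Each line holds the 250 bases before the annotated start, 5′ to 3′ on the gene's strand, from RefSeq on build GRCm38.p6. Capitals mark the GC box GGGCGG, the TATA box TATAAA and the nuclear receptor binding hexamer AGGTCA, read on either strand. The windows are chr5:17835897-17836146 on the minus strand for Cd36, chr7:19699189-19699438 on the minus strand for Apoe, chr6:124662854-124663103 on the plus strand for Lpcat3 and chr4:53159896-53160145 on the minus strand for Abca1. For Apoe the most upstream of 3 annotated starts is shown.
Cd36: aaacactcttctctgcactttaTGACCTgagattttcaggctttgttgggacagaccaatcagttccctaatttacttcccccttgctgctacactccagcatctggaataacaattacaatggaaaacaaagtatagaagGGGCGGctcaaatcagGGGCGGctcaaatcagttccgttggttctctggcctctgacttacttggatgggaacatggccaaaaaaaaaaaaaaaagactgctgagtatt
Apoe: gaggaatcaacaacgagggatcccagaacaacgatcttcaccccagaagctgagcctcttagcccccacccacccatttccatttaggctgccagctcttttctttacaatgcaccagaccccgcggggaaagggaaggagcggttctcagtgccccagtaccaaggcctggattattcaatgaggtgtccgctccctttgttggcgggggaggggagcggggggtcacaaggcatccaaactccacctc
Lpcat3: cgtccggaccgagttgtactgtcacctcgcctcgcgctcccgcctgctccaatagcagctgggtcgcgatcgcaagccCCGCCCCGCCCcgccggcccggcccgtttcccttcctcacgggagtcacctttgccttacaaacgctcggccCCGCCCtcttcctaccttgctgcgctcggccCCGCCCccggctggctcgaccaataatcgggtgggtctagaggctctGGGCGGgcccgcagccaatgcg
Abca1: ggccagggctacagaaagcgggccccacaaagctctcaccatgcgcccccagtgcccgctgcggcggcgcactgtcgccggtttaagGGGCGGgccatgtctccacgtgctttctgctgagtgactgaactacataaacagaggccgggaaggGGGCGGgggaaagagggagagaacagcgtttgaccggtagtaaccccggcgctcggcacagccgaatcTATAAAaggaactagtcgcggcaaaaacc

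Promoter entries were matched for 6 of the 10 genes, with 11 windows among the 32851 of the table, and Lpl, Fabp4, Fabp5 and Abcg1 had none. The hexamer AGGTCA was found in 3 of the 11 windows, those of Cd36 and Pparg, and in 14% of all windows. The GC box lay in 5 of the 11 windows (Cd36, Lpcat3, Abca1 and Pparg) against 32.7% of all windows, and it was read 5 times in the Lpcat3 window, where the first pair overlap. The TATA box lay in 3 of the 11 windows (Abca1, Apoe and Pparg) against 12.4% of all, and in Abca1 its last base was 24 bases before the start. The Apoe match lay in the window of another start than the one shown, which held none of the marked strings. The direct repeats that LXR (DR4) and PPAR (DR1) bind with the retinoid X receptor were found in 0 of the 11 windows and in 0.067% and 0.164% of all windows, so these letters were rare in windows of this length. A match is a string of letters and does not show that a factor binds there.

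Fabp4 and Fabp5 encode proteins of one family, and their sequences are shown because the results below set one against the other, which needs reads that can be told apart. The stretches below are coding bases 267 to 386 of Fabp4 and 273 to 392 of Fabp5, counted from 1 at the start codon, from the GENCODE transcripts, and they are the ungapped window of 120 bases with the most identical positions. Capitals mark the bases that differ between both lines.
Fabp4: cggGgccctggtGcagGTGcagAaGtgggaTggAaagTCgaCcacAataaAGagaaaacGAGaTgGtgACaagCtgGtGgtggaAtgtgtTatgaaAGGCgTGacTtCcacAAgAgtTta
Fabp5: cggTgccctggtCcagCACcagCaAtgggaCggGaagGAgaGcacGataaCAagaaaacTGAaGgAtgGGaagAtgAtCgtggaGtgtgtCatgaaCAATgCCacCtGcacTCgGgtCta
Of these 120 bases 81 were identical. Over the aligned coding sequences 245 of 396 bases were identical (61.9%), and the longest run of bases shared by the transcripts was 12, so counts of Fabp4 and Fabp5 could be read as counts of separate genes.

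Uptake transcripts were lower in every leukemic library than in any non-leukemic library. Cd36 had 56.0 CPM in the lowest, a median of 79.2 and 89.8 in the highest of the 6 non-leukemic libraries, and 11.4, 23.5 and 31.9 CPM in the 6 leukemic libraries. The groups did not overlap, and the log2 fold change of leukemic over non-leukemic libraries was -1.81 ± 0.19 (SE, 6 libraries per condition; edgeR quasi-likelihood test, adjusted p = 4.01e-05), a 3.51-fold fall. Cd36 was the only uptake gene of the pair whose level in male non-leukemic replicate 3 (85.1 CPM) lay among the other male non-leukemic libraries (81.4 and 89.8 CPM).

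Lpl had 57.6, 69.0 and 162 CPM as the lowest, median and highest non-leukemic values and 12.9, 24.0 and 43.9 CPM in the leukemic libraries. It fell by 1.81 ± 0.25 on the log2 scale (edgeR adjusted p = 0.000328). The highest value was that of male non-leukemic replicate 3, and the other 5 non-leukemic libraries lay between 57.6 and 89.2 CPM, still above all 6 leukemic libraries. Without that library Lpl fell by 1.58 (edgeR adjusted p = 0.000379). In the leukemic libraries, the 3 male values of Lpl (28.0 to 43.9 CPM) were above the 3 female values (12.9 to 20.1 CPM).

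**Figure D1:**
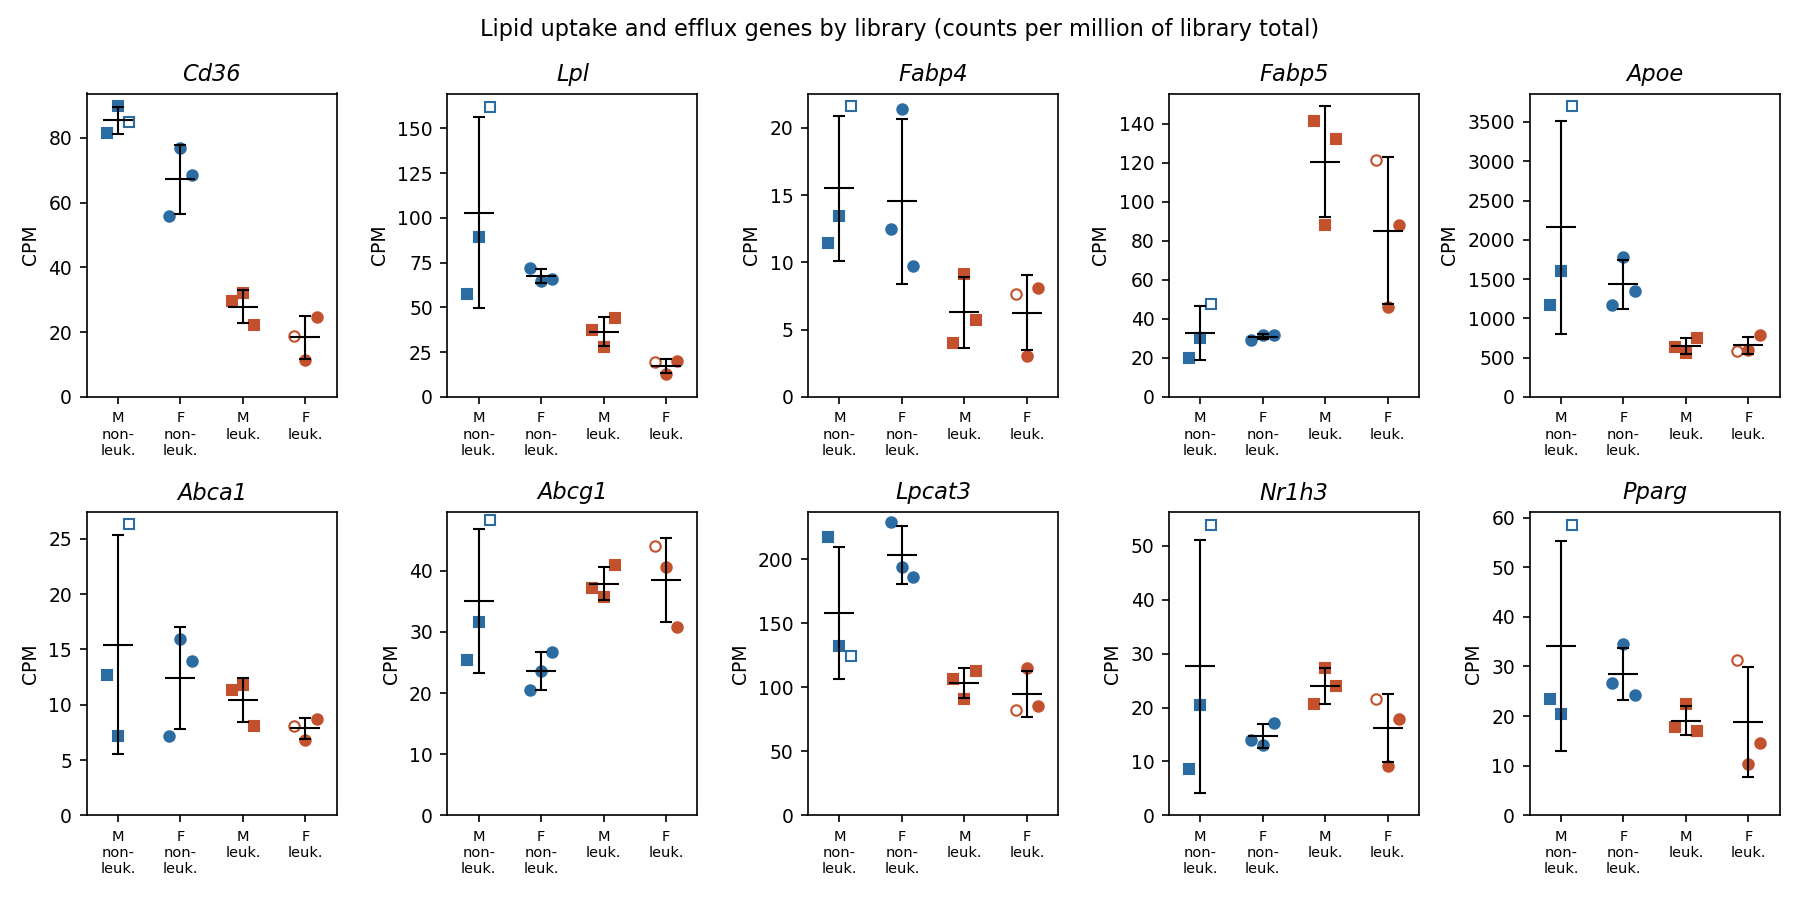
CPM (counts scaled by the library total, linear axis from 0) of each gene in each library, by sex and condition (M male, F female, squares and circles). Bars are the mean ± SD of 3 libraries, and open marks are male non-leukemic replicate 3 and female leukemic replicate 1. Cd36, Lpl, Fabp4, Apoe and Lpcat3 are lower in all leukemic libraries, and Fabp5 is above all non-leukemic libraries in 5 of 6 leukemic ones.

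The fatty acid binding protein genes moved in opposite directions. Fabp5, a widely expressed member of the family, had 19.9, 30.9 and 47.4 CPM as the lowest, median and highest non-leukemic values and 46.0, 105 and 142 CPM in the leukemic libraries. It rose by 1.61 ± 0.27 on the log2 scale (edgeR adjusted p = 0.00145), a 3.06-fold increase. The groups overlapped through a single pair: female leukemic replicate 2 at 46.0 CPM and male non-leukemic replicate 3 at 47.4 CPM. In the other 5 leukemic libraries Fabp5 was at 88.1 CPM or above.

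Fabp4, best known from fat cells and also expressed by macrophages and capillary endothelium, had 9.69, 12.96 and 21.6 CPM in the non-leukemic and 3.07, 6.68 and 9.14 CPM in the leukemic libraries. The groups did not overlap, with a gap of less than 1 CPM between female non-leukemic replicate 3 and male leukemic replicate 2. Fabp4 fell by 1.33 ± 0.33 on the log2 scale (edgeR adjusted p = 0.0145). It did not pass against a minimum change of 1.5-fold (edgeR adjusted p = 0.0877).

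Within each library the count of Fabp5 divided by that of Fabp4 does not depend on the scaling. In the non-leukemic libraries the ratio was 2.21 ± 0.610 (SD, n = 6), from 1.48 to 3.26, and in the leukemic libraries it was 18.3 ± 9.62, from 9.65 to 35.5. The ratio was therefore higher in every leukemic library than in any non-leukemic one, and its spread was widest among the 3 male leukemic libraries (9.65 to 35.5). Without the pair of libraries that stand apart the means were 2.22 and 18.8, 5 libraries per condition. The other 8 members of the gene family (Fabp1, Fabp2, Fabp3, Fabp6, Fabp7, Fabp9, Fabp12 and Pmp2) were too low to test, with at most 34 counts over 6 libraries of a condition.

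**Figure D2:**
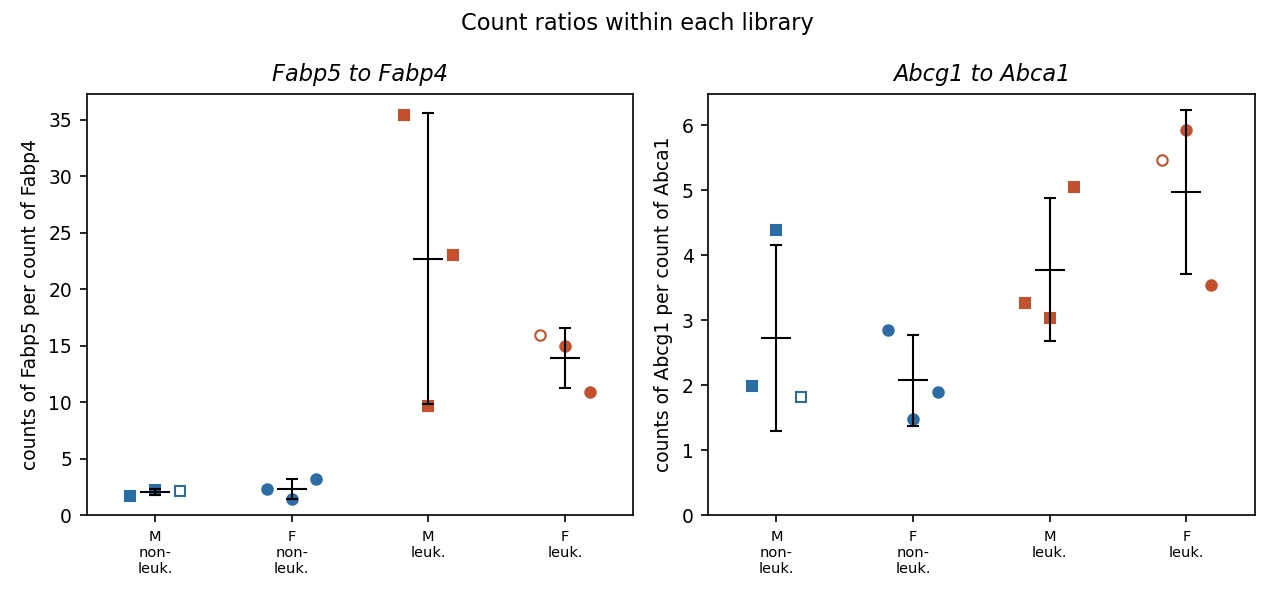
Counts of Fabp5 per count of Fabp4 (left) and of Abcg1 per count of Abca1 (right) in each library, by sex and condition, on linear axes from 0. Bars are the mean ± SD of 3 libraries and open marks are the pair of libraries that stand apart. The Fabp5 to Fabp4 ratio is 1.48 to 3.26 in non-leukemic and 9.65 to 35.5 in leukemic libraries.

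Among the efflux genes, Apoe fell while neither transporter passed the test. Apoe had 1165, 1480 and 3705 CPM as the lowest, median and highest non-leukemic values and 560, 612 and 784 CPM in the leukemic libraries. The groups did not overlap and Apoe fell by 1.53 ± 0.28 on the log2 scale (edgeR adjusted p = 0.00263). The highest value was again that of male non-leukemic replicate 3, while the other 5 non-leukemic libraries ended at 1779 CPM. Without that library Apoe fell by 1.17 (edgeR adjusted p = 0.000184).

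Abca1 had 7.18, 13.4 and 26.4 CPM in the non-leukemic and 6.85, 8.40 and 11.8 CPM in the leukemic libraries. All 6 leukemic values lay within or below the non-leukemic range, and only female leukemic replicate 2 lay below every non-leukemic library. The log2 fold change was -0.70 ± 0.31 with a 95% interval of -1.30 to -0.09 (edgeR adjusted p = 0.146), so a change of Abca1 was not shown after adjustment over 15758 genes.

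Abcg1 had 20.4, 26.0 and 48.2 CPM in the non-leukemic and 30.8, 38.9 and 44.1 CPM in the leukemic libraries. The log2 fold change was 0.33 ± 0.21 with a 95% interval of -0.08 to 0.75 (edgeR adjusted p = 0.327). A single library decided this call. Male non-leukemic replicate 3 had the 48.2 CPM, above every leukemic library, and without it Abcg1 was higher by 0.53 on the log2 scale and passed (edgeR adjusted p = 0.0339).

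The count of Abcg1 per count of Abca1 was 2.41 ± 1.07 (SD, n = 6) in non-leukemic libraries, with a range of 1.48 to 4.39. In leukemic libraries it was 4.38 ± 1.25, with a range of 3.04 to 5.93. These ranges overlapped, since male non-leukemic replicate 2 had 4.39. Apoe made up 76.9% ± 5.28 of the counts of the 10 genes in non-leukemic and 65.4% ± 4.76 in leukemic libraries, and the 10 genes together held 0.162% to 0.433% of all counts in non-leukemic and 0.0851% to 0.116% in leukemic libraries.

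Lpcat3 encodes an enzyme of the endoplasmic reticulum that puts polyunsaturated fatty acids into lysophospholipids and is a known LXR target. It had 125, 190 and 229 CPM in the non-leukemic and 82.7, 98.6 and 115 CPM in the leukemic libraries. The groups did not overlap, and Lpcat3 fell by 0.93 ± 0.15 on the log2 scale (edgeR adjusted p = 0.000925), a 1.91-fold fall. Unlike most of the 10 genes, it was lowest in male non-leukemic replicate 3 among the non-leukemic libraries. It did not pass against a minimum change of 1.5-fold (edgeR adjusted p = 0.0625). Lpcat3 overlaps Emg1 on the opposite strand, and the library kit does not mark strand, so reads of the shared stretch could not be told apart. Emg1 itself had 171 ± 18.1 (SD, n = 6) CPM in non-leukemic and 171 ± 16.05 CPM in leukemic libraries.

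The nuclear receptor genes did not pass. Pparg had 20.5, 25.5 and 58.6 CPM in the non-leukemic and 10.4, 17.4 and 31.3 CPM in the leukemic libraries. Both extremes came from the libraries that stand apart, with male non-leukemic replicate 3 at 58.6 CPM and female leukemic replicate 1 at 31.3 CPM. The log2 fold change was -0.78 ± 0.34, with a 95% interval of -1.45 to -0.12 (edgeR adjusted p = 0.138). Pparg passed without female leukemic replicate 1 (-1.11, edgeR adjusted p = 0.0150) and without both libraries (-0.76, edgeR adjusted p = 0.0252), but not without male non-leukemic replicate 3 alone (-0.45, edgeR adjusted p = 0.309).

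Nr1h3 had 8.61, 15.6 and 53.8 CPM in the non-leukemic and 9.18, 21.1 and 27.3 CPM in the leukemic libraries. The leukemic values lay inside the non-leukemic range. The log2 fold change was -0.11 ± 0.38, with a 95% interval of -0.86 to 0.64 (edgeR adjusted p = 0.886), and without male non-leukemic replicate 3 it was 0.37 (edgeR adjusted p = 0.421). No direction can be read for Nr1h3.

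Counted together, 6 of the 10 genes passed with edgeR, 5 lower and 1 higher. Over the 10 genes the median log2 fold change was -0.86, and over all genes tested it was -0.01. All 6 libraries of one condition lay above all 6 of the other for 5 of the 10 genes (Cd36, Lpl, Fabp4, Apoe and Lpcat3), against 8.68% of all genes tested (3.63% lower and 5.05% higher in leukemic libraries). Without the pair of libraries that stand apart, 6 genes were lower (the same 5 and Pparg) and 2 higher (Fabp5 and Abcg1), in a fit where 28.9% of all 16300 genes tested passed, 14.1% lower and 14.9% higher. The 10 genes were chosen with earlier results of these data known, so these counts describe the genes and do not test them as a group.

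Levels can be set side by side between genes only per transcript length. As CPM per kilobase of the longest protein-coding transcript, the non-leukemic order was Apoe (1276 ± 686, SD, n = 6), Lpcat3 (79.3 ± 19.0), Fabp5 (32.1 ± 8.97), Cd36 (22.4 ± 3.62), Lpl (20.7 ± 9.50), Fabp4 (16.8 ± 5.79), Pparg (14.7 ± 6.66), Nr1h3 (10.8 ± 8.43), Abcg1 (5.03 ± 1.71) and Abca1 (1.36 ± 0.691). From Cd36 to Nr1h3, neighbours in this order differed by less than the smaller SD of the pair. In the leukemic libraries Fabp5, at 104 ± 36.1 CPM per kilobase, was second to Apoe (462 ± 66.6) and above Lpcat3 (43.4 ± 6.28). The other 7 genes lay between 0.891 and 10.3 CPM per kilobase on average, with Nr1h3 (10.3 ± 3.19) at the top and Abca1 (0.891 ± 0.193) at the bottom.

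The leukemia difference was then taken within each sex. In males 7.37% of all genes passed (4.04% lower and 3.34% higher), and 5 of the 10 genes did: Cd36 (-1.77), Lpl (-1.68), Apoe (-1.92) and Lpcat3 (-0.76) were lower and Fabp5 (1.72) higher on the log2 scale, with edgeR adjusted p of 0.00226, 0.0154, 0.0108, 0.0447 and 0.0241. In females 8.43% of all genes passed (4.59% lower and 3.84% higher), and 4 of the 10 did: Cd36 (-1.85), Lpl (-1.94) and Lpcat3 (-1.11) were lower and Fabp5 (1.51) higher, with edgeR adjusted p of 0.00256, 0.00785, 0.00763 and 0.0390. Apoe did not pass in females (-1.13, edgeR adjusted p = 0.0888), and Fabp4 passed in neither sex (-1.47 in males and -1.19 in females). Cd36 in both sexes and Lpl and Lpcat3 in females passed whichever library was left out. The male falls of Apoe and Lpl were smaller without male non-leukemic replicate 3, with Apoe in males at -1.21 (adjusted p = 0.00770) and Lpl in males at -1.12 (adjusted p = 0.0277). The calls for Lpl and Apoe in males were lost without male leukemic replicate 1 or 2, with edgeR adjusted p of at most 0.0845 and 0.0633. The call for Fabp5 was less firm within a sex, since it was lost in males without replicate 1 or 2 of the male non-leukemic or 1 or 3 of the male leukemic libraries (adjusted p of at most 0.0910), and in females it held only without replicate 1 or 3 of the male non-leukemic libraries, male leukemic replicate 2 or female leukemic replicate 2 (adjusted p of at most 0.137 otherwise). The call for Lpcat3 in males held only without replicate 2 or 3 of the male non-leukemic libraries or female leukemic replicate 1 (adjusted p of at most 0.188 otherwise). Apoe in females passed without male non-leukemic replicate 1 or 3, and Abcg1 in females without male non-leukemic replicate 3 (adjusted p = 0.0497).

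The difference between the sexes was itself tested. In the interaction of sex and leukemia 0 of the 10 genes and 0% of all genes passed with edgeR. At an unadjusted p under 0.05 the interaction had 925 genes (5.87%), none of them among the 10, and DESeq2 called 23 genes. The interaction values of the 10 genes ran from -0.35 to 0.79 on the log2 scale, and the smallest edgeR adjusted p was 0.819, for Abcg1. Its leukemia difference was -0.06 ± 0.26 in males and 0.73 ± 0.27 in females, and neither passed. In males the 48.2 CPM of male non-leukemic replicate 3 entered this value, and without that library it was 0.30. In females all 3 leukemic values of Abcg1 (30.8 to 44.1 CPM) were above the 3 non-leukemic values (20.4 to 26.6 CPM).

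Female and male libraries of one condition also gave 0 calls with edgeR, 0% in each condition. At an unadjusted p under 0.05 the non-leukemic comparison had 769 genes (4.88%), with Abcg1 among the 10, and the leukemic comparison had 1370 genes (8.69%), with Lpl among the 10. Xist, the X-inactivation RNA, was higher in females by 5.58 on the log2 scale in non-leukemic libraries and still had an edgeR adjusted p of 0.599. Its counts there were 4 to 27 in males and 601 to 947 in females, so 0 calls do not show that the sexes were alike. Male leukemic replicate 1 had 91 Xist counts, against 0 and 3 in the other male leukemic libraries, and the fit shared its spread over all 12 libraries. The source of these 91 counts was not tested.

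**Figure D3:**
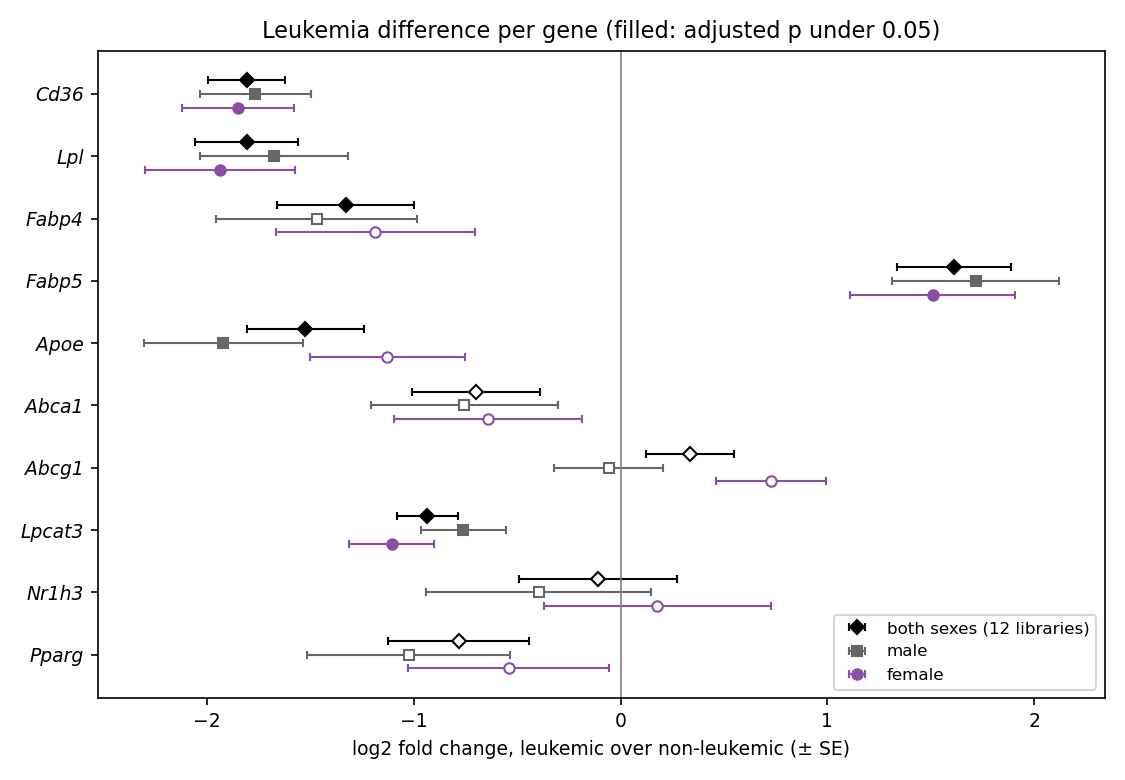
Log2 fold change of leukemic over non-leukemic libraries for each gene (horizontal axis), with bars of 1 SE, in all 12 libraries (diamonds), males (squares) and females (circles). Filled marks have an edgeR adjusted p under 0.05. Cd36, Lpl and Lpcat3 are lower and Fabp5 higher in all 3 rows, and Abcg1 is near 0 in males and at 0.73 in females.

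The sorted cells themselves differed between conditions. A list of 8 macrophage genes held 0.726% ± 0.323 (SD, n = 6; range 0.450 to 1.30) of counts in non-leukemic and 0.280% ± 0.0501 (0.219 to 0.365) in leukemic libraries, and 4 of the 8 were lower (Csf1r, Adgre1, Lyz2 and Itgam), with a list median of -0.95 on the log2 scale. None of the 8 passed as higher, though Csf2rb went up from 118 ± 51.9 to 184 ± 57.9 CPM. Within a sex, 2 of the 8 were lower in males (median -1.25) and 0 in females (median -0.66). Of all genes, 4.04% were lower in males and 4.59% in females. The 1.30% was that of male non-leukemic replicate 3, and the other non-leukemic libraries held 0.450% to 0.834%. A list of 11 marrow resident macrophage genes, such as Vcam1 and Siglec1, went from 0.145% ± 0.0749 (0.102 to 0.297) to 0.0597% ± 0.0167 (0.0298 to 0.0773), with 7 of 11 lower and a median of -1.40. Lyz2, which neutrophils also express, held 81.9% to 89.1% of the counts of the 8-gene list in non-leukemic and 66.4% to 81.0% in leukemic libraries. The other 7 genes held 0.108% ± 0.0641 (0.0670 to 0.236) and 0.0695% ± 0.00536 (0.0609 to 0.0748) of all counts, so without Lyz2 the ranges overlapped. The median of -0.86 of the 10 lipid genes stands beside these values. In sorted bulk samples, fewer cells of a type and less RNA per cell cannot be told apart.

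Scaling each library to the geometric mean of the 8 macrophage genes asks how the lipid genes moved relative to them, with Lyz2 weighing no more than any other of the 8. This shifted the median over all genes from -0.01 to 0.65 on the log2 scale, with 26.7% of all genes passing, 24.5% higher (3857 genes) and 2.27% lower (357 genes). The geometric mean of the 8 genes was 325 CPM in male non-leukemic replicate 3 and 99.3 to 148 CPM in the other non-leukemic libraries. In leukemic libraries it was 69.6 to 100 CPM. Macrophage gene scaling was not repeated without male non-leukemic replicate 3. Relative to the macrophage genes, Cd36 (-1.17, edgeR adjusted p = 0.00840), Lpl (-1.05, adjusted p = 0.0104) and Apoe (-0.69, adjusted p = 0.0176) were still lower, and Fabp5 (2.32, adjusted p = 6.93e-05) was still higher. Fabp4 (-0.60, adjusted p = 0.156) and Lpcat3 (-0.33, adjusted p = 0.462) no longer passed with edgeR. Abcg1 was higher under this scaling (1.07, adjusted p = 0.00531), where the median of all genes was 0.65. Abca1 (0.11) and Nr1h3 (0.72) turned to positive values without passing, and Pparg was at -0.03.

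**Figure D4:**
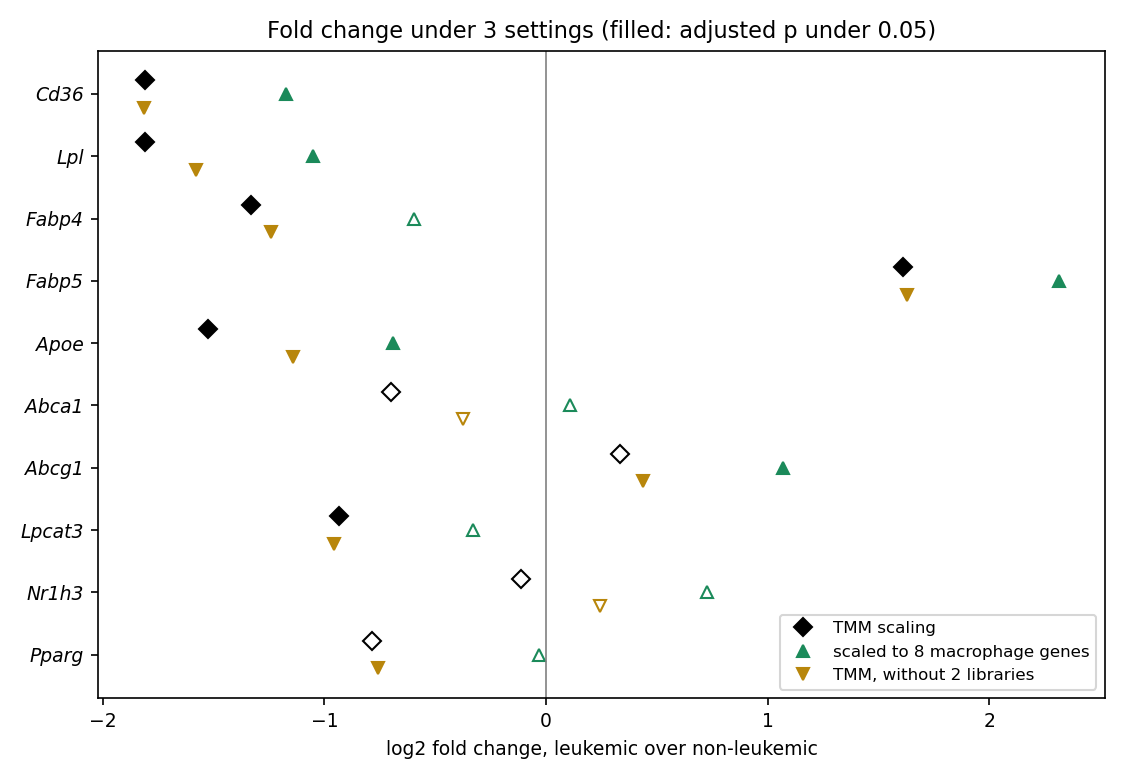
Log2 fold change of leukemic over non-leukemic libraries for each gene under trimmed mean of M values (TMM) scaling (diamonds), scaling to 8 macrophage genes (upward triangles) and TMM without male non-leukemic replicate 3 and female leukemic replicate 1 (downward triangles). Filled marks have an edgeR adjusted p under 0.05. Cd36, Lpl and Apoe stay below 0 and Fabp5 above 0 and filled in all 3, and Abca1 and Nr1h3 cross 0.

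Markers of other cells moved in the same libraries. Of 10 erythroid genes tested, 10 were lower, and their share of counts went from 1.68% ± 0.217 (SD, n = 6; range 1.46 to 1.92) to 0.0976% ± 0.0298 (0.0618 to 0.142). Neutrophil genes went from 4.05% ± 1.47 (2.75 to 6.32) to 1.77% ± 0.498 (1.21 to 2.55), with 8 of 10 lower. Within a sex, 9 of these 10 were lower in males and 1 in females, where 4.04% and 4.59% of all genes were. Mpo did not pass and had a higher mean in leukemic (6118 CPM) than in non-leukemic libraries (4690 CPM). T and NK cell genes went from 0.0480% ± 0.0103 (0.0298 to 0.0578) to 0.195% ± 0.0560 (0.127 to 0.262), with 12 of 12 higher, and eosinophil, basophil and mast cell genes from 0.747% ± 0.187 (0.545 to 1.08) to 1.79% ± 0.927 (1.10 to 3.58), with 5 of 10 higher and 1 lower. The 5 were the basophil and mast cell genes Mcpt8, Cpa3, Ms4a2, Fcer1a and Prss34, the 1 was the eosinophil receptor gene Ccr3 (from 29.0 ± 10.5 to 6.48 ± 2.16 CPM, edgeR adjusted p = 0.000152), and the eosinophil genes Prg2, Epx, Il5ra and Siglecf did not pass. Each of these 4 shares and both macrophage shares had an exact two-sided permutation p of 0.00216, the smallest that the arrangements of 12 libraries can give, and an adjusted p of 0.00433 over 12 lists. The lists were chosen with earlier results of these data known, so these p-values describe the shares and give no separate support. Lyz2 held most of the share of the 8 macrophage genes, and without it the ranges overlapped. The monocyte, B cell, dendritic cell, megakaryocyte and adipocyte shares did not pass (exact permutation, adjusted p from 0.104 to 0.379). The part of other cells in the changes of the lipid genes was not tested.

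Fat cells are known to express Cd36, Lpl and Fabp4, and capillary endothelium Cd36 and Fabp4, and their own markers were read for that reason. The adipocyte genes Plin1, Lep and Cidec had 0 counts in all 12 libraries, and Adipoq had 25 counts over the non-leukemic and 5 over the leukemic libraries. The endothelial list of 6 genes was higher in leukemic libraries, at 0.00891% ± 0.00158 (0.00650 to 0.0107) against 0.0178% ± 0.00382 (0.0103 to 0.0206), with 2 of 6 higher. Pecam1 was the highest of the 6, with means of 58.4 CPM in non-leukemic and 125 CPM in leukemic libraries, and held most of this share. Cdh5 was the lowest, with means of 0.550 and 0.786 CPM. The part of such cells in the values of Cd36, Lpl and Fabp4 was not tested.

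Further lipid genes were read by role. Of 80 further genes in 9 lists by role, 65 could be tested, of which 14 were lower and 2 higher, with a median log2 fold change of -0.27. That is 14 of 65 lower where 9.2% of all genes were, and 2 of 65 higher where 8.71% were, and the counts of 1 to 3 genes by role below are to be read against the same shares. Without male non-leukemic replicate 3 the lists gave 15 lower and 7 higher, the other 11 fits that left out a library gave 11 to 17 lower and 2 higher, and relative to the 8 macrophage genes 3 were lower and 18 higher. Nuclear receptors and their co-regulators gave 0 of 12 tested with edgeR, and other LXR targets 0 of 6, while at an unadjusted p under 0.05 they had 1 (Nr1h2) and 3 (Scd1, Arl4c and Smpdl3a). Nr1h2, which encodes LXR beta, was at -0.36 ± 0.12 (edgeR adjusted p = 0.0528) and the co-repressor gene Ncor1 at -0.24. Nr1h2 passed with DESeq2 (adjusted p = 0.0344) and with edgeR when female leukemic replicate 1 (-0.36, adjusted p = 0.0405) or female non-leukemic replicate 3 (-0.39, adjusted p = 0.0393) was left out. The LXR targets Scd1, a fatty acid desaturase gene (-0.99, adjusted p = 0.0794), and Arl4c (0.73, adjusted p = 0.111) had values of opposite sign. Scd1 passed as lower with DESeq2 (-0.97, adjusted p = 0.0329) and with edgeR once male non-leukemic replicate 3 (-1.17, adjusted p = 0.0176) or both libraries that stand apart (-0.99, adjusted p = 0.0139) were left out. Ppara had 0 counts in all 12 libraries.

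Among uptake and fatty acid transport genes 3 of 12 tested were lower and 0 higher. Acsl1, which activates long-chain fatty acids as coenzyme A esters, had 153 ± 12.1 (SD, n = 6) CPM in non-leukemic and 73.3 ± 13.6 CPM in leukemic libraries and fell by 1.14 ± 0.11 on the log2 scale (edgeR adjusted p = 3.16e-05). Scarb1, the high-density lipoprotein receptor gene, fell by 0.57 ± 0.13 (adjusted p = 0.00951). Cxcl16 passed as higher when male non-leukemic replicate 3 was left out, and Olr1 and Slc27a4 passed as lower when female leukemic replicate 3 was left out. Among lipases and their regulators 2 of 8 were lower and 0 higher. Mgll, the monoglyceride lipase gene, had 67.4 ± 23.4 CPM in non-leukemic against 7.04 ± 1.51 CPM in leukemic libraries (log2 fold change -3.31 ± 0.23, adjusted p = 2.21e-06), and Abhd5, the co-activator of the triglyceride lipase ATGL, fell by 0.91, while Pnpla2, the ATGL gene, was higher only when male non-leukemic replicate 3 was left out, alone or with female leukemic replicate 1, or relative to the 8 macrophage genes.

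Among further efflux and lipoprotein genes 3 of 8 were lower and 1 higher. Abcg4, a sterol transporter gene related to Abcg1, fell from 99.2 ± 46.0 (SD, n = 6) to 8.81 ± 4.08 CPM, by 3.57 ± 0.40 on the log2 scale (edgeR adjusted p = 7.36e-05), and Cyp27a1, the sterol 27-hydroxylase gene, fell by 1.11. In the family of lysophospholipid acyltransferases that holds Lpcat3, 2 of 6 were lower and 1 higher. Mboat2 went from 57.4 ± 24.6 to 8.48 ± 2.47 CPM (-2.81 ± 0.32, adjusted p = 7.94e-05), Lpcat1 fell by 1.52, and Mboat1, named after its values were seen, rose by 1.48, and Lpcat4 and Mboat7 joined it when male non-leukemic replicate 3 was left out. Other PPAR targets gave 2 of 7 lower (Ucp2 by 0.77 and Acadvl by 0.46), and lipid droplet genes 2 of 6 lower (G0s2 by 1.05 and Dgat2 by 0.93). The call for Acadvl was lost in 9 of the 12 fits that left out a library (adjusted p from 0.0511 to 0.0864), and it held where female leukemic replicate 1 or, of the non-leukemic males, replicate 2 or 3 was absent. That for G0s2 was lost without male leukemic replicate 1 (0.0607), 2 (0.0701) or 3 (0.0678). Plin2 joined the PPAR targets as lower in 2 of those fits, and Dgat1 the droplet genes in 1. Relative to the 8 macrophage genes, Mgll (-2.77), Abcg4 (-3.06) and Mboat2 (-2.35) still passed, and Acsl1 (-0.50), Abhd5 (-0.29), Cyp27a1 (-0.40), Lpcat1 (-0.96), Ucp2 (-0.09), G0s2 (-0.35) and Dgat2 (-0.17) did not, while Scarb1 (0.12), Acadvl (0.14), Nr1h2 (0.33) and Ncor1 (0.46) turned positive.

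**Figure D5:**
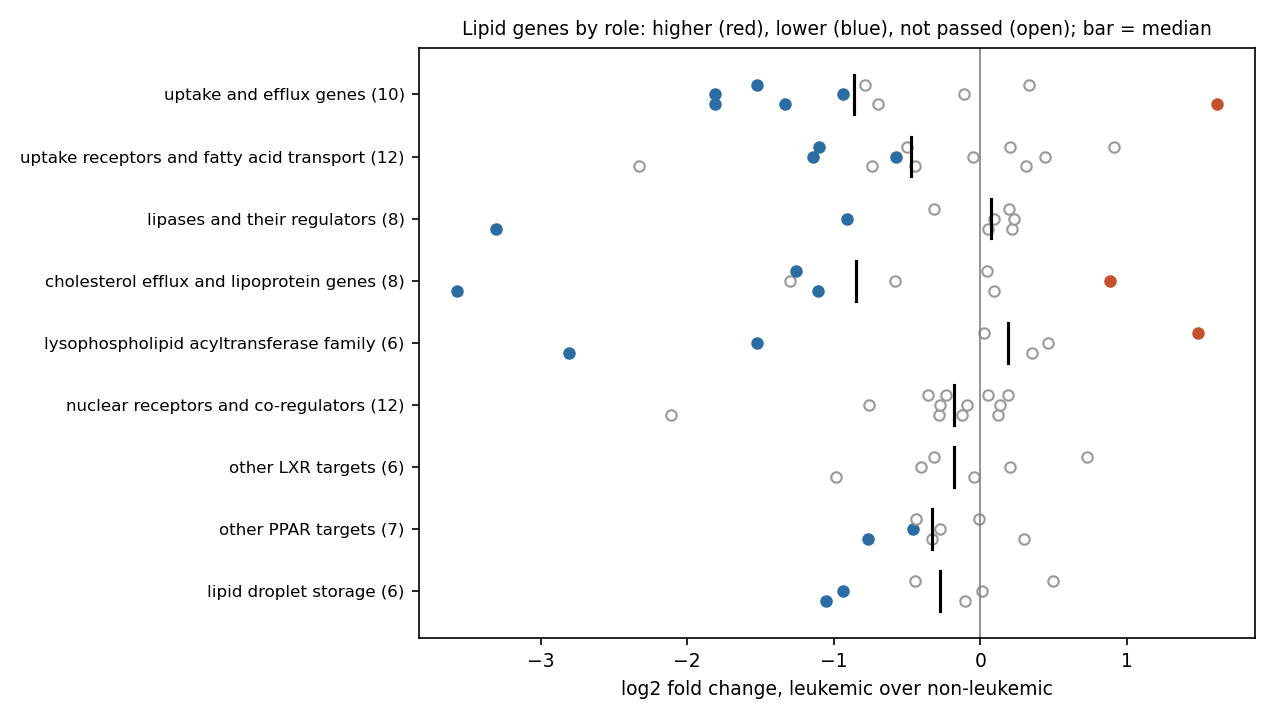
Log2 fold change of leukemic over non-leukemic libraries (horizontal axis) for each gene tested, in rows by role with the number tested. The top row is the 10 lipid uptake and efflux genes, filled blue marks are lower and filled red marks higher at an edgeR adjusted p under 0.05, open marks did not pass, and black bars are row medians. The medians run from -0.86 in the top row to 0.19 in the lysophospholipid acyltransferase family.

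The genes whose level followed each lipid gene most closely were found among all genes tested, predicted genes and the other lipid genes left out, by the root mean square difference of log2 CPM after centring each gene over the 12 libraries. For Cd36 they were Tnfsf13b (0.33) and the iron exporter gene Slc40a1 (0.34), where the median gene was at 1.09. For Lpl they were the receptor kinase gene Axl (0.27) and the heme oxygenase gene Hmox1 (0.27). For Apoe they were Aldh3b1 (0.22) and the chemokine receptor gene Cx3cr1 (0.23), and for Pparg the macrophage gene Cd68 (0.25) and the class II gene H2-Aa (0.25). For Fabp5 they were Tnfrsf18 (0.27), known from lymphocytes, and the osteopontin gene Spp1 (0.30). Lpcat3 was followed most closely by Eif2ak1 (0.12), the heme-regulated kinase gene that is high in red cell precursors, and by Fen1 (0.12). For Nr1h3 they were Maf (0.25) and Cd86 (0.27), for Fabp4 Card10 (0.32) and Sh2d1b1 (0.36), for Abca1 Arhgef10l (0.33) and Rassf4 (0.34), and for Abcg1 Capza2 (0.16) and Slc25a29 (0.17). The 12 libraries share the leukemia difference and the change in cell content, so these values describe the libraries and carry no test. Among the 10 genes themselves, the closest pairs were Abca1 with Pparg (0.43) and Cd36 with Lpl (0.44), and the farthest was Cd36 with Fabp5 (1.76).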

How the data were processed

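Per the labels' protocols, sorted cells gave 1 ng of RNA per library, which was pre-amplified to cDNA and tagmented with kits that mark neither strand nor molecules. The deposited values are the authors' raw counts per gene, 1 column per library. The submitters' processing notes name build GRCm39 and, with no settings, the counter featureCounts (Subread 2.0.1), the aligner STAR 2.7.9a, fastp 0.23.1, bcl2fastq 2.19.1, R 4.0.2 and DESeq2 1.28.1. Genes were filtered with filterByExpr of edgeR 4.0.16 over the 4 groups (15758 of 56832 left), scaled by TMM and tested with the robust quasi-likelihood F test in R 4.3.3, two-sided, with sex as a term. Effects within a sex, the interaction and sex differences were contrasts of 4 group means. Benjamini-Hochberg adjustment ran over all genes tested, with 0.05 as the threshold, and an SE is the size of the fold change divided by the square root of F. The 95% intervals of fold changes are normal intervals from the SE. CPM were computed from library totals. All 10 genes were named whatever their values, of each pathway list the 2 genes with the lowest p, and for likeness the 2 nearest genes. The genes and lists were chosen with earlier results of these data known. No library copied another (lowest chi-square per degree of freedom 22.6). Alternatives were relative log expression (RLE) factors, library totals, macrophage gene scaling, DESeq2 1.42.0, limma-voom (limma 3.58.1), a replicate block, no sex term, other filters, a minimum change of 1.5-fold, the libraries of 1 sex, and leaving out libraries. The count ratios without both libraries that stand apart, the macrophage share without Lyz2 and the pathway counts under each setting were added with the data in view. The fits were tested on simulated data beforehand.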

Additional observations from a re-analysis of the deposited data

Results flagged for a closer look

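Of 46 groups of 6 libraries, 9 held a library whose gap to its nearest neighbour was over 0.625 of the group's range (Dixon's test), where chance flags about 1 in 20 groups. Among the non-leukemic libraries, male replicate 3 was far above the others for Lpl (162 CPM, others 57.6 to 89.2), Apoe (3705 CPM, others 1165 to 1779), Nr1h3 (53.8 CPM, others 8.61 to 20.5) and Pparg (58.6 CPM, others 20.5 to 34.4). The same library was far above the others in the share of marrow resident macrophage genes (0.297%, others 0.102% to 0.130%), monocyte genes (0.131%, others 0.0471% to 0.0734%) and dendritic cell genes (0.0304%, others 0.0166% to 0.0213%).

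Among the leukemic libraries, female replicate 2 had 3.58% of its counts in eosinophil, basophil and mast cell genes, against 1.10% to 1.80% in the others. Female leukemic replicate 1 had 0.0103% in endothelial genes, against 0.0178% to 0.0206%. None of the 10 lipid genes met this criterion among the leukemic libraries.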

How the results depend on the processing

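Cd36, Lpl, Apoe and Fabp5 kept their direction and passed when each of the 12 libraries was left out and under all 11 other settings. Fabp4 and Lpcat3 passed in all 12 such fits and in 9 of the 11 settings, the exceptions being scaling to the macrophage genes and a minimum change of 1.5-fold. Under macrophage gene scaling 2 of the 10 genes were higher and 3 lower, and of all genes 3857 were higher and 357 lower, against 1373 and 1449. Abca1 (0.11), Nr1h3 (0.72), Scarb1 (0.12), Nr1h2 (0.33), Ncor1 (0.46) and Acadvl (0.14) reversed there. Against 1.5-fold, 3 of the 10 genes were lower and 978 of all genes passed, and of the further genes named Scarb1, Cyp27a1 (adjusted p = 0.109), Ucp2 (0.312), Dgat2 (0.229), G0s2 (0.184) and Acadvl no longer passed. Acadvl was also lost with library totals (0.0684) and with no filter on low counts (0.0593). Without both libraries that stand apart, 2 of the 10 genes were higher and 4717 of all genes passed, the 6 cell type shares reported with an adjusted p of 0.00433 had 0.0136 (so did the endothelial share, 0.00742 with all libraries), and the count ratios moved by less than their SD. DESeq2 called 2053 genes in males, 2359 in females and 23 for the interaction, none of the 23 among the 10 genes, and it called Fabp4 in males and Apoe in females. With only the female libraries, 0 of the 10 genes were higher in females (Fabp5, adjusted p = 0.0603) and Apoe was lower (-1.11, adjusted p = 0.0263). With only the male libraries Lpcat3 did not pass (-0.74, adjusted p = 0.0855), nor did it in males with no filter on low counts (0.0551).

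Nr1h3 reversed with limma-voom (0.026), without male non-leukemic replicate 3 (0.37), without female leukemic replicate 2 (0.028) and without both libraries that stand apart (0.24). In males, Abcg1 (0.30) and Nr1h3 (0.62) reversed without male non-leukemic replicate 3, and in females Nr1h3 (-0.16) without female leukemic replicate 1. Leaving out 1 library at a time, Nr1h3 ran from -0.29 to 0.37, from -0.81 to 0.62 in males and from -0.16 to 0.53 in females, and Abcg1 in males from -0.24 to 0.30. It gave 1 to 2 of the 10 genes higher, 0 to 1 higher and 1 to 4 lower in males, and 0 to 2 higher in females. Over all genes it gave 513 to 2087 calls in males, 504 to 1773 in females, and 0 to 3 in each comparison of the sexes. The cause of these shifts was not tested.

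The replicate numbers did not pair the libraries: deviations of same-numbered libraries correlated between -0.109 and 0.079 over 18 pairs, and those of differently numbered libraries between -0.095 and 0.104. With the replicate number as a block, 1 of the 10 genes was higher, 5 were lower and 2509 of all genes passed. In that fit 0 of the 10 genes were higher in females, where Fabp5 had an adjusted p of 0.0611, and Lpcat3 in males had an adjusted p of 0.0630. The log2 fold change of Nr1h3 over both sexes was 0.00349 with this block, and Nr1h3 did not pass. Each of the 10 genes had at least 82 counts in every library.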
